A study of Sus scrofa with 6 samples.

Results

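The S100 proteins are small calcium-binding proteins, and 10 of their genes were examined in a pair of untreated pig cell lines: S100A1, S100A2, S100A4, S100A6, S100A8, S100A9, S100A10, S100A11, S100A12 and S100B. The genes were chosen by name from the array's probe-to-gene table, which held 10 probe sets for 9 of them, out of 23999 probe sets and 6790 named genes tested. S100A2 has no probe set with that symbol in the table and was not measured here. S100A6 had 2 probe sets, both listed with that symbol alone but under a pair of gene records, and the other 8 genes had 1 each. OBGF400, labelled as a neuroblast line of porcine olfactory bulb origin, was compared with PK15, a pig kidney line labelled as non-neuronal and epithelial, which the design used as the somatic background. Each line was measured on 3 Affymetrix porcine arrays, and each array carried biotin-labelled RNA pooled from several of the 9 cultures of that line. Cells of both lines grew with 10% bovine calf serum, penicillin, streptomycin and gentamicin. The base medium was DMEM/F12/HAM for OBGF400 and minimum essential medium with amphotericin B for PK15, so line and medium cannot be told apart. A line is 1 model of its cell type, and the p-values measure the spread between pools of that line.

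S100 proteins fold around a pair of EF-hand calcium sites and mostly work as dimers. When calcium rises in the cell, most of them open a hydrophobic face that grips a target protein, such as an annexin at the membrane, a nonmuscle myosin or a kinase. S100A10 is the exception, since it is held in the open state without calcium. Several members also leave the cell and act on receptors such as RAGE (the product of AGER) and TLR4. In nervous tissue S100B is a common marker of astrocytes and Schwann cells. S100A8, S100A9 and S100A12 are best known from neutrophils and monocytes, and S100A4, S100A6, S100A10 and S100A11 are found in many fibroblasts and epithelia.

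S100A4, S100A6, S100A9, S100A10 and S100A11 were lower in OBGF400 than in PK15, and no measured S100 gene was called higher. Of the 9 measured genes, 5 were lower and 4 were not called, at an adjusted p under 0.05 (limma, Benjamini-Hochberg over all genes). Over all 6790 genes, 36.9% were lower and 23.9% higher in OBGF400 by the same rule. At probe set level 6 of the 10 S100 probe sets were lower, against 21.7% of all probe sets, and 0 were higher, against 20.2% (limma, adjusted over all probe sets). No S100 gene was higher at an unadjusted p under 0.05 either. The median difference of the 9 genes was -1.19 (OBGF400 minus PK15, log2), and that of all genes was -0.002. All values below are the deposited log2 signals. Apart from the marker sums below, levels of different probe sets are not compared, because probe sets bind their targets with different strength. In those sums a bright probe set can outweigh the others. The table has a shared lower limit of 2.13, called the floor, and a gene is described as at the floor of a line when its 3 arrays all lie within 0.1 of it. The shares above include features at the floor in both lines, among them 1 S100 gene, S100A8. Without such features, 43.6% of genes were lower and 28.3% higher, and 31.5% of probe sets were lower and 29.3% higher.

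**Figure D1:**
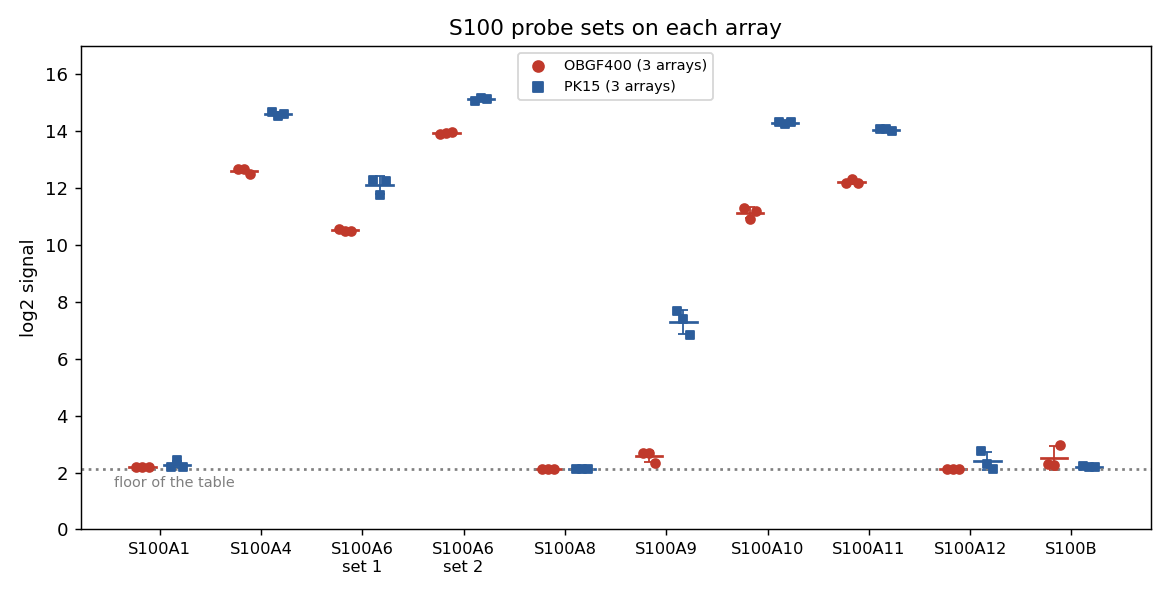
Log2 signal (vertical axis) of the 10 S100 probe sets (horizontal axis) on each array, with the 3 OBGF400 arrays as red circles and the 3 PK15 arrays as blue squares; horizontal lines are means, error bars are SD and the dotted line is the floor of the table. S100A4, both S100A6 probe sets, S100A9, S100A10 and S100A11 lie lower on all OBGF400 arrays, while S100A1, S100A8, S100A12 and S100B stay within 0.85 of the floor on all arrays.

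The annexin-binding pair S100A10 and S100A11 were both lower in OBGF400. S100A10, the partner of annexin A2 in a complex under the plasma membrane, had signals of 11.31, 10.91 and 11.21 on the OBGF400 arrays and 14.31, 14.27 and 14.34 on the PK15 arrays. No OBGF400 array reached the PK15 range, and the lowest OBGF400 array was the second pool. Its difference was -3.16 ± 0.12 (SE, n = 3 per line), an 8.97-fold higher signal in PK15 with a 95% confidence interval of 7.22 to 11.1 (limma, adjusted p = 7.59e-05). Of all tested probe sets, 3.89% had a lower difference. S100A11, which binds annexin A1 and takes part in membrane repair, had signals of 12.18, 12.31 and 12.19 in OBGF400 and 14.07, 14.09 and 14.02 in PK15. The spread within each line was small, with an SD of 0.07 in OBGF400 and 0.04 in PK15, and the lines lay far apart. The signal was 3.57-fold higher in PK15 (95% confidence interval 3.30 to 3.86, limma adjusted p = 2.04e-05), the smallest adjusted p of the 10 probe sets.

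S100A4 and S100A6, a pair of genes tied to cell motility and growth, gave signals far above the floor in both lines and were lower in OBGF400. S100A4, which binds nonmuscle myosin heavy chains and is also known as a fibroblast marker, had signals of 12.67, 12.69 and 12.50 in OBGF400. On the PK15 arrays it had 14.67, 14.53 and 14.62, so that every PK15 array was above every OBGF400 array. The difference was -1.99 ± 0.07 (SE, n = 3 per line), 3.97-fold higher in PK15 (95% confidence interval 3.49 to 4.52, limma adjusted p = 6.61e-05). S100A6, also called calcyclin, binds the ubiquitin-ligase adaptor CACYBP. Its brighter probe set had signals of 13.90, 13.94 and 13.97 in OBGF400 and 15.05, 15.18 and 15.13 in PK15. Its other probe set had 10.56, 10.50 and 10.50 in OBGF400 and 12.30, 11.75 and 12.26 in PK15. Both probe sets put every OBGF400 array below every PK15 array, and the second PK15 pool was the low one of its line on the dimmer probe set only. The brighter set gave a 2.27-fold higher signal in PK15 (95% confidence interval 2.10 to 2.46, limma adjusted p = 6.81e-05) and the dimmer set a 2.99-fold higher signal (2.18 to 4.11, limma adjusted p = 0.00202). The intervals of the 2 probe sets overlap, and the difference between them was not tested. By the estimate of either probe set, the S100A6 change was the smallest among the 5 called genes. The interval of the dimmer set includes the estimates of S100A4 (3.97) and S100A11 (3.57), so that set does not settle the order.

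The calgranulins S100A8, S100A9 and S100A12 differed in whether they were measured above the floor at all. S100A9, which pairs with S100A8 to form the antimicrobial complex calprotectin, had signals of 7.67, 7.39 and 6.85 in PK15. In OBGF400 it had 2.69, 2.69 and 2.34, close to the floor, with 2 arrays at an identical value. The lines did not overlap, and the PK15 arrays spread more than those of the other 9 member probe sets (SD 0.42). The difference was -4.73 ± 0.26 (SE, n = 3 per line, limma adjusted p = 0.000233) as deposited. Because the OBGF400 level is near the floor, the size depends on how low values are treated: with 32 added to the linear values it was -2.33 (limma adjusted p = 0.000834), smaller than the -3.15 of S100A10 under the same offset. S100A8 was at the floor on all 6 arrays, at 2.13 on each, including the PK15 arrays on which S100A9 was well above it. S100A12, a ligand of RAGE, was at 2.13 on all OBGF400 arrays and at 2.77, 2.31 and 2.13 in PK15. That difference of -0.27 (95% confidence interval -0.76 to 0.22) was not called (limma adjusted p = 0.363), and the highest PK15 array lay 0.64 above the floor.

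S100A1 and S100B, the members most tied to muscle and to glia, were near the floor in both lines. S100A1, a modulator of calcium release in muscle, had signals of 2.21, 2.20 and 2.21 in OBGF400 and 2.21, 2.43 and 2.21 in PK15. The lines overlapped, and the difference of -0.08 (95% confidence interval -0.27 to 0.11) was not called (limma adjusted p = 0.541). In the RefSeq annotation of the pig assembly Sscrofa11.1 the S100A1 gene overlaps S100A13, which has no named probe set here. S100B had signals of 2.30, 2.25 and 2.98 in OBGF400 and 2.22, 2.18 and 2.21 in PK15. Its arrays did not overlap, but only OBGF400 pool 3 stood clear of the PK15 level. The difference of 0.31 (95% confidence interval -0.29 to 0.91) was not called (limma adjusted p = 0.412). Differences this close to the floor are not detectable on these arrays, and the table does not show that the genes are silent. Counted by overlap alone, 7 of the 10 S100 probe sets separated the lines, against 50.5% of all probe sets, and 6 of them were lower in OBGF400, against 26.1%.

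Array scaling changes the size of every difference, so the S100 genes were also examined after scaling on spiked control RNAs. The 27 hybridization control probe sets were lower on the OBGF400 arrays by 0.82 on average, the 20 probe sets of the poly-A controls dap and thr were higher by 0.77, and all 38 poly-A control probe sets were higher by 0.31. Over all genes the median difference, -0.002 as deposited, became 0.82, -0.77 and -0.31 with these scalings. The 5 called S100 genes remained lower in OBGF400 and called under each of these scalings, which called 18.6%, 76.0% and 42.4% of all genes lower. The other 4 S100 genes were called higher after hybridization control scaling, which did the same for 66.3% of all genes, and lower after dap and thr scaling. The smallest differences came with the hybridization controls: -0.36 and -0.76 for the S100A6 probe sets, -1.01 for S100A11, -1.17 for S100A4, -2.34 for S100A10 and -3.91 for S100A9. The genes near the floor took the sign of the scaling: S100A8, at the floor throughout, became 0.82 and -0.77. Which control set best reflects the RNA input was not tested.

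**Figure D2:**
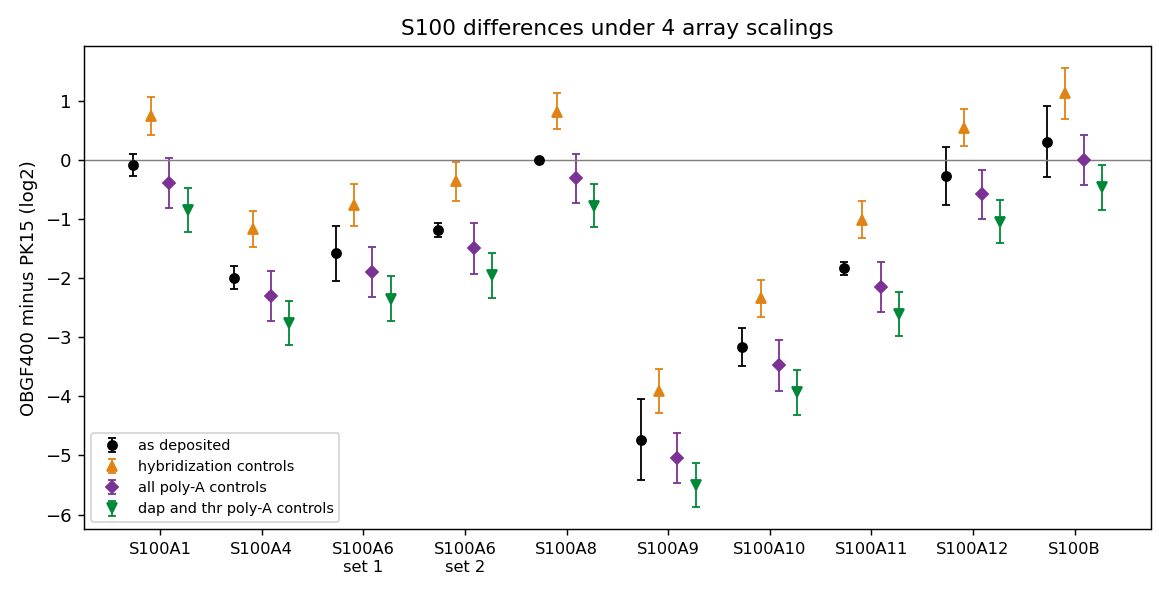
Difference OBGF400 minus PK15 on the log2 scale (vertical axis) of each S100 probe set (horizontal axis) as deposited and after scaling on 3 sets of control probe sets; points are limma estimates and bars are 95% confidence intervals. The 6 called probe sets stay below 0 under every scaling, from -0.36 for the brighter S100A6 set to -5.50 for S100A9, whereas S100A1, S100A8, S100A12 and S100B cross 0.

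The 5 called genes did not fall by the same amount. The log2 ratio of 2 genes on the same array does not change with array scaling, so the 10 pairs among these genes were compared by that ratio, with two-sided exact permutation tests over the 3 arrays of each line. With 3 arrays against 3, the smallest possible p is 0.1, so no pair can pass a threshold of 0.05 before or after adjustment over the 10 pairs. Relative to S100A11, S100A10 was lower in OBGF400 by a further -1.33, with no overlap of the arrays (exact permutation p = 0.1). The S100A9 to S100A11 ratio changed by -2.90, and by -0.50 with 32 added to the linear values (exact permutation p = 0.1 for each). By the brighter S100A6 probe set, which stood for the gene in these ratios, the S100A4 to S100A6 ratio changed by -0.80. The S100A6 to S100A11 ratio changed by 0.65. S100A6 thus changed least by that set, again with no overlap of the arrays (exact permutation p = 0.1 for each ratio). By the signals given above, the ratio of the dimmer set to S100A11 overlaps between the lines, while its ratio to S100A4 does not. The dimmer set therefore does not separate S100A6 from S100A11, and its ratios were not tested. S100A4 and S100A11 could not be separated: their ratio changed by -0.15, and its arrays overlapped between the lines (exact permutation p = 0.2). Among the 4 genes far above the floor in both lines, the mean change was largest for S100A10, then S100A4 and S100A11 together. S100A6 came last by its brighter probe set. S100A9 has no fixed place in that order, because its OBGF400 signals lie near the floor: its ratio to S100A10 changed by -1.57 as deposited and by 0.82 with 32 added to the linear values.

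Annexins, the main membrane partners of S100A10 and S100A11, were lower in OBGF400 for 4 of the 5 measured, and 1 was not called (limma, median difference -0.86). Hybridization control scaling gave 1 higher and 2 lower, and dap and thr scaling 5 lower. Annexin A2, ANXA2, the partner of S100A10, had a mean signal of 14.11 ± 0.03 in OBGF400 against 14.98 ± 0.07 in PK15 (SD, n = 3). The difference was -0.86 (limma adjusted p = 7.93e-05) and became -0.04 after hybridization control scaling. The S100A10 to ANXA2 ratio within an array was lower in OBGF400 by 2.01 at the closest pair of arrays, with a mean change of -2.30 (exact permutation p = 0.1, the smallest possible). ANXA1, the partner of S100A11, differed by -0.80 (limma adjusted p = 4.17e-05), which became 0.02 after hybridization control scaling, and the S100A11 to ANXA1 ratio changed by -1.04 (exact permutation p = 0.1). ANXA4 (-1.52) and ANXA11 (-1.21), the S100A6-binding annexin, were lower as well. ANXA5 was at 13.21 ± 0.04 against 13.19 ± 0.03 and was not called.

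At the cell surface the complex of S100A10 and annexin A2 binds plasminogen and its activator PLAT. Of 6 measured genes of the plasminogen system, 3 were higher, 1 lower and 2 not called (limma, median difference 0.23). The balance turned with scaling, to 5 higher and 1 lower by the hybridization controls and 2 higher and 3 lower by dap and thr. PLAT, the tissue plasminogen activator, had a mean signal of 6.49 ± 0.44 in OBGF400 against 11.64 ± 0.02 in PK15 (SD, n = 3) and differed by -5.15 (limma adjusted p = 7.84e-05). The protease inhibitors SERPINB2 (8.12, or 5.98 with 32 added to the linear values) and SERPINE2 (5.09) were higher in OBGF400. ENO1, a glycolytic enzyme that also binds plasminogen, differed by 0.45, which became -0.31 after dap and thr scaling. The urokinase PLAU differed by -0.38 and was not called (limma adjusted p = 0.0607), and PLG itself was at the floor in both lines.

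Intracellular targets of S100 proteins held calls in both directions. Among 16 with a named probe set, 6 were higher, 3 lower and 7 not called (limma, median difference 0.07). These counts became 12 higher and 2 lower after hybridization control scaling, and 4 higher and 10 lower after dap and thr scaling. MYH9, the nonmuscle myosin heavy chain bound by S100A4, had a mean signal of 13.44 ± 0.04 in OBGF400 against 11.20 ± 0.19 in PK15 (SD, n = 3), 2.25 higher by the probe set used (limma adjusted p = 8.65e-05), while its other probe set was not called. With the called MYH9 probe set only, the S100A4 to MYH9 ratio was lower in OBGF400 by a mean of -4.23 (exact permutation p = 0.1, the smallest possible). MYH10, a second nonmuscle myosin, was higher by 4.09 (2.19 with 32 added to the linear values) on 1 of its 2 probe sets. STK38, a kinase bound by S100B, was higher by 2.65, and HTR1B, a serotonin receptor that binds S100A10, by 2.79 (1.12 with 32 added to the linear values). CACYBP, the S100A6 partner, had 12.83 ± 0.07 against 12.90 ± 0.02 and was not called (limma adjusted p = 0.199), and the S100A6 to CACYBP ratio changed by -1.11 (exact permutation p = 0.1). ATP2A2, the calcium pump regulated by S100A1 in muscle, was higher by 0.82 (0.05 after dap and thr scaling), with 3 of its 4 probe sets called. The co-chaperones FKBP4 (-1.51), SUGT1 (-1.28) and STUB1 (-0.80, or 0.02 after hybridization control scaling) were lower.

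The best-known receptors of secreted S100 proteins were at the floor. AGER, which encodes RAGE, and TLR4 were at 2.13 in both lines. Of 16 measured receptor and signalling genes, 5 were higher, 3 lower and 8 not called (limma, median difference 0.02), and 5 of those not called were at the floor in both lines. With hybridization control scaling 13 were higher and 2 lower, and with dap and thr scaling 2 were higher and 11 lower. ALCAM, an adhesion receptor reported to bind S100B, averaged 2.34 ± 0.17 in OBGF400 against 9.94 ± 0.08 in PK15 (SD, n = 3) and differed by -7.60 (-4.78 with 32 added to the linear values), with 2 of its 4 probe sets called. LY96, the co-receptor of TLR4 (-1.23), and the kinase IRAK1 (-0.94) were lower too. IRAK1 was called on 1 of its 2 probe sets, and its difference became -0.11 after hybridization control scaling. FGFR1, a fibroblast growth factor receptor (2.22), NFKBIA, the inhibitor of NF-kappaB (2.71), and NPTN (0.82) were higher. NPTN was called on 2 of its 3 probe sets, and its difference became 0.05 after dap and thr scaling. BSG, a receptor of S100A9, was higher by 0.58, which became -0.19 after dap and thr scaling.

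**Figure D3:**
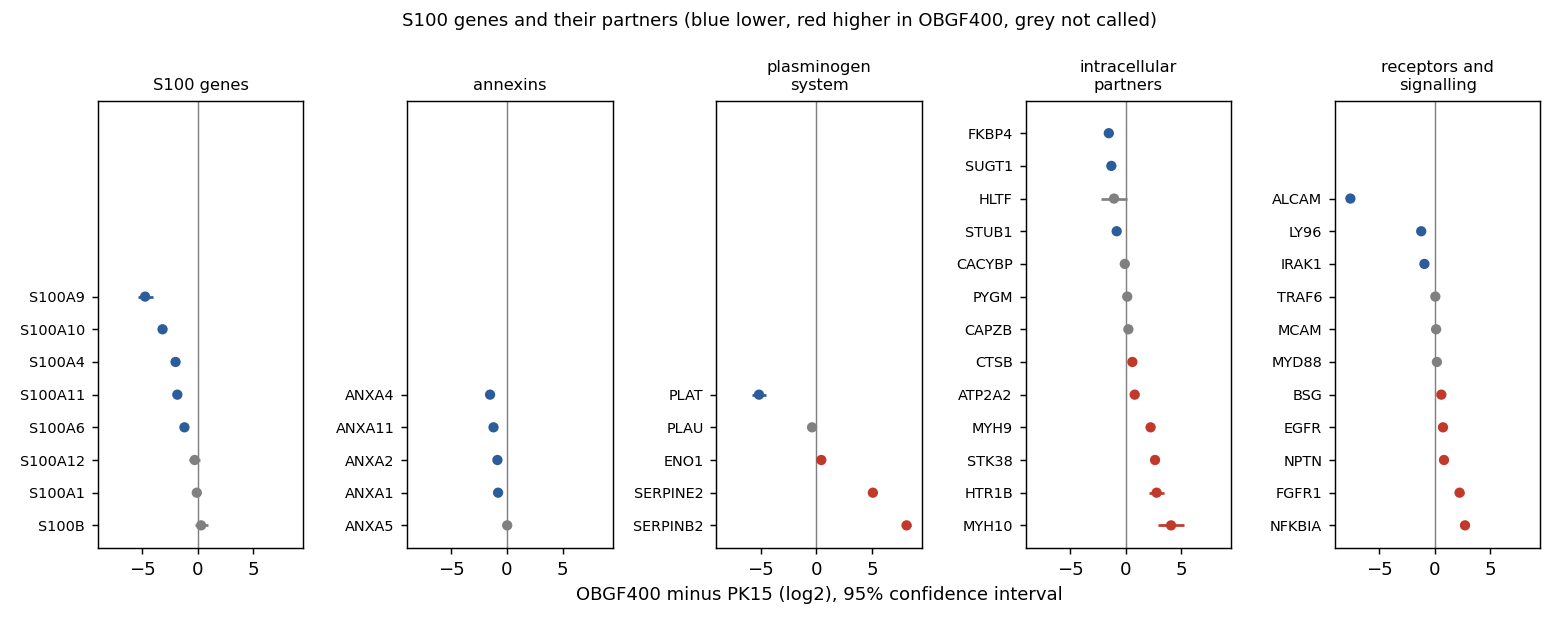
Difference OBGF400 minus PK15 on the log2 scale (horizontal axis) of S100 genes, annexins, plasminogen system genes, intracellular partners and receptor or signalling genes, 1 gene per line, without genes at the floor in both lines; points are limma estimates, bars 95% confidence intervals, and colour gives the call. The called S100 genes and annexins are all lower in OBGF400, while the other panels hold calls on both sides as deposited, such as SERPINB2 at 8.12 and ALCAM at -7.60.

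Other EF-hand proteins were counted in the same way, and their balance depended on the scaling. Among 29 with a named probe set, 8 were higher, 8 lower and 13 not called in the deposited values (limma, median difference 0.01), against 23 higher and 3 lower after hybridization control scaling and 6 higher and 21 lower after dap and thr scaling. The calmodulin-like CALML4 (-6.50, or -4.32 with 32 added to the linear values), the integrin-binding CIB1 (-2.28) and the calmodulin gene CALM3 (-1.22) had the largest falls, although 4 of the 6 CALM3 probe sets were called higher. RCN1, an endoplasmic reticulum calcium protein (3.66), the secreted SPARC (1.83) and CALU (1.70) had the largest rises, RCN1 and SPARC each by 1 of 2 probe sets. Of 15 further genes listed, S100 relatives and S100PBP, which is not itself an S100 gene, 3 had a named probe set. S100A14, an epithelial S100 gene, lay at the OBGF400 floor and had signals of 7.01, 5.99 and 4.23 in PK15, a difference of -3.61 (limma adjusted p = 0.0132) that was -1.34 and not called with 32 added to the linear values (limma adjusted p = 0.0603). S100PBP, a nuclear protein that binds S100P, was higher by 2.00 (0.50 with 32 added to the linear values), and S100G, intestinal calbindin, differed by -0.45 and was not called (limma adjusted p = 0.137). Another 4 probe sets are listed for S100A16 together with ATPAF2 and are not attributed to either.

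Most S100A genes lie in 1 cluster, and the gene order of Sscrofa11.1 was used to set their differences side by side. From S100A1 to S100A10 the annotation holds 46 protein-coding genes, 15 of them S100 genes, and 12 had a named probe set. S100A4 and S100A6 lie in 1 stretch of the cluster, S100A8, S100A12 and S100A9 in a second, and S100A11 and S100A10 are direct neighbours at its far end. Within the stretch of S100A8, S100A12 and S100A9, S100A9 was called and the other two were not. The 3 measured genes in between that are not S100 genes, PPGRP-S, SPRP and the cornified envelope gene IVL, were not called. PPGRP-S was at 2.13 on all 6 arrays and IVL at 2.17 to 2.27, both at or near the floor, where a difference is not detectable, and SPRP at 4.59 to 5.07. S100A14 lies in the cluster between S100A1 and S100A4 and was called lower (-3.61, or -1.34 and not called with 32 added to the linear values). Just outside S100A1, SNAPIN, a vesicle fusion gene, was lower in OBGF400 by -2.31 (limma adjusted p = 0.000287) and CHTOP was not called (-0.10). S100B lies on an unplaced sequence of this assembly.

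**Figure D4:**
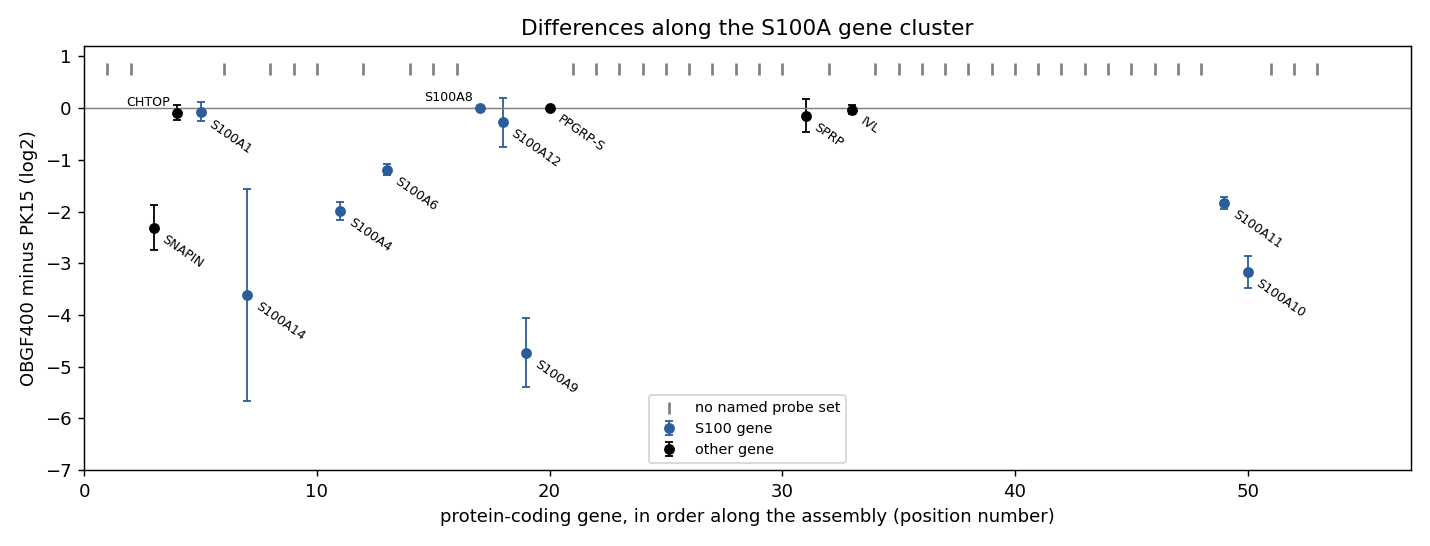
Difference OBGF400 minus PK15 on the log2 scale (vertical axis) of genes in their order along Sscrofa11.1 (horizontal axis, position number from 4 genes before S100A1), with S100 genes in blue, other genes in black, genes without a named probe set as grey ticks, and limma 95% confidence intervals as bars. Called S100 genes, from S100A6 at -1.19 to S100A9 at -4.73, are interleaved with S100 genes and other genes close to 0.

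Cell type markers are given here as measured, and their part in the S100 result was not tested. Of 13 epithelial markers, 12 were lower in OBGF400 and 1 was not called. Their summed linear signal ranged from 74.2 to 76.7 on the OBGF400 arrays and from 109000 to 112000 on the PK15 arrays. KRT18, KRT19, PERP, MAL2 and DSP were at the floor in OBGF400. Floor values are part of the sum, so the OBGF400 sum does not measure an amount of marker RNA. The largest falls were those of the desmosome-linked PERP (-12.18, or -9.15 with 32 added to the linear values) and the keratins KRT8 (-12.14, or -9.51) and KRT18 (-11.56, or -8.55). Of 13 mesenchymal markers, 11 were higher in OBGF400 and 2 were not called, with a summed linear signal of 195000 to 198000 against 61000 to 64700. ACTA2, a smooth muscle actin (11.62, or 9.62), the cadherin CDH11 (11.61, or 8.57) and the matrix gene POSTN (10.04, or 7.09) had the largest rises. POSTN was called on 1 of its 2 probe sets. The direction of S100A4 was opposite to that of the fibroblast genes DCN and FAP, which were higher in OBGF400. DCN differed by 9.60 (6.77 with 32 added to the linear values, called on 1 of its 2 probe sets) and FAP by 6.51 (3.66). The 11 measured myeloid markers comprised 3 lower, 2 higher and 6 not called, and had a summed linear signal of 170 to 198 in OBGF400 and 3700 to 3970 in PK15. LAPTM5 (-8.75, or -5.77), AIF1 (-8.58, or -5.56) and the myeloid factor SPI1 (-4.02, or -1.70) were lower in OBGF400 like S100A9. TYROBP (2.34, or 1.22) and CD14 (1.03, or 0.58) were higher. LAPTM5 and CD14 were each called on 1 of 2 probe sets. PTPRC, ITGAM, FCER1G, ELANE, CD163 and MRC1 lay at the floor in both lines. The 10 measured glial markers comprised 1 higher, 3 lower and 6 not called, with SLC1A3, SLC1A2, OLIG2 and FABP7 at the floor in both lines. Their summed linear signal of 26000 to 26800 in OBGF400 and 1770 to 1920 in PK15 was mostly that of GJA1 in OBGF400 (25100 to 25700), and without GJA1 the other 9 summed to 921 to 1050 in OBGF400 and 1490 to 1670 in PK15. The gap junction gene GJA1 was higher (6.51). MBP (-5.36, or -2.82, by 2 of its 4 probe sets) and GFAP (-5.10, or -2.68, by 1 of its 4 probe sets) were lower. GLUL was lower as well (-0.30, or 0.53 after hybridization control scaling), by 2 of its 3 probe sets. Of 11 neuroblast and neuron markers, 4 were higher in OBGF400 (UCHL1, THY1, NCAM1 and MAP2), STMN1 was lower and 6 were at the floor in both lines, among them GAP43, SNAP25 and ELAVL4. Hybridization control scaling and dap and thr scaling gave 8 higher and 2 lower against 2 higher and 8 lower for the glial list, 8 and 3 against 1 and 9 for the myeloid list, and 10 and 1 against 4 and 7 for the neuroblast and neuron list. For the epithelial list they gave 12 and 13 lower with 0 higher, and for the mesenchymal list 13 higher with 0 lower against 10 higher with 3 lower. Each array averages over its cultures, so fewer cells with a gene and less RNA per cell cannot be told apart.

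The 5 S100 probe sets of S100A4, S100A6, S100A10 and S100A11 all lay above 10 on every array, a limit chosen after their values were seen. Of the 1931 probe sets above that limit, 42.5% were lower in OBGF400 by limma and 13.9% had a difference under -1. The cut at -1 was not part of the planned tests either, and all 5 S100 probe sets lie under it. These shares therefore describe the background and are no test of the S100 genes. The genes whose profile over the 6 arrays was closest to that of S100A9, with each profile centred on its own mean, were the phospholipase PLA1A, GC, which encodes the vitamin D-binding protein, and SAMD12. Their root mean square differences from S100A9 were 0.13, 0.14 and 0.19 log2 units, among 5444 genes compared. PLA1A had signals of 2.27, 2.23 and 2.25 in OBGF400 and 7.34, 7.02 and 6.36 in PK15, so PK15 pool 3 was the lowest of that line, as for S100A9. This likeness is a description over 6 arrays.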

How the data were processed

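The 6 arrays gave 1 log2 signal per probe set in the deposited table, which the authors made with the package affy, per the submitters' processing notes. Version, background step, summarisation and normalization: not given in the sources used here. Column means were near-equal (5.41 to 5.42), 25.8% to 27.3% of an array's values lay at the minimum of 2.13, and no detection calls were used. Pearson correlations across probe sets were 0.996 to 0.998 within a line and 0.86 to 0.865 between the lines. Precision is limited by the number of arrays. Pooled over both lines, the SD between arrays had a median of 0.24 for mean signals from 4 to 6 and of 0.09 for mean signals from 12 to 14.

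Of 24123 probe sets, 124 controls were left out and 23999 tested. The platform annotation gave 10110 of them 1 symbol (41 through several gene records with the same symbol), 157 several and 13732 none. By Entrez number 10002 were found in RefSeq (Sscrofa11.1), and 0 symbols changed. No coordinates are printed because no build is named for the probes. OBGF400 was tested against PK15 with limma 3.58.1 (lmFit and eBayes, two-sided) in R 4.3.3, at probe set level and at gene level. The probe set with the highest mean stood for a gene, and Benjamini-Hochberg adjustment covered the whole table at 0.05. The fit was tested on simulated data. Tables and figures were made in Python 3.11.15.

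Member p-values are adjusted over probe sets, and those of other genes over genes. The members, the gene lists and the tests were chosen with earlier results of these data known. Named genes are all members, up to 3 called genes of each list in either direction by size of the difference, direct partners of called members, and the 3 closest profiles. IVL, SPRP, PPGRP-S, SNAPIN and CHTOP were added for their position. Genes at the floor in a line, PLAU, ATP2A2, ANXA5, S100G, MAP2, DCN and FAP are outside this rule and were added after their values were seen. The alternatives were quantile normalization, median centring, 3 control scalings, 2 filters on dim probe sets, trended and robust variance, array weights, 32 added to the linear values, a threshold of 0.01, averaging the probe sets of a gene, a replicate block, and leaving out each array.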

Additional observations from a re-analysis of the deposited data

How the results depend on the processing

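Under 18 alternatives, each of the 6 called S100 probe sets stayed lower in OBGF400 and past the threshold. Leaving out each array in turn gave differences of -4.96 to -4.55 for S100A9, -3.25 to -3.05 for S100A10, -2.03 to -1.93 for S100A4, -1.87 to -1.81 for S100A11, and -1.22 to -1.16 and -1.76 to -1.48 for the S100A6 probe sets. The counts of S100 probe sets and genes called lower were 6 and 5, and became 10 probe sets and 9 genes after dap and thr scaling and 7 and 6 after scaling on all poly-A controls. Hybridization control scaling called 4 S100 probe sets and 4 S100 genes higher, where the deposited values called 0. These were the probe sets at or near the floor, which a scaling moves by a constant. Under it S100A1 reversed to 0.75 and S100A12 to 0.55, and S100B reversed to -0.46 under dap and thr scaling and to -0.00074 under scaling on all poly-A controls. The count of all probe sets differing was 10060 as deposited, 21558 after hybridization control scaling and 21678 after dap and thr scaling. Among all genes 66.3% were called higher and 18.6% lower after the first, and 12.2% and 76.0% after the second. The replicate numbers are shared by the lines, but deviations of same-numbered arrays correlated at only 0.039, 0.006 and 0.019. These values gave no sign of pairing, although they cannot exclude that same-numbered arrays were handled together. With the replicate block 6 S100 probe sets were lower, and 8661 probe sets differed in all. With 32 added to the linear values, an alternative chosen for the ratios after seeing the data, the S100A9 to S100A10 ratio reversed from -1.57 to 0.82 and the S100A9 to S100A11 ratio moved from -2.90 to -0.50; the S100A4 to S100A9 ratio moved from 2.74 to 0.34, with overlapping arrays, and the S100A6 to S100A9 ratio from 3.55 to 1.14.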
